A study of Mus musculus with 8 samples.

Results

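Genes that encode proteins of the red-cell membrane were followed across the arrays, namely Slc4a1, Ank1, Epb42, Sptb, Rhag, Rhd, Icam4 and Ermap. They were taken by symbol from the platform annotation, which assigned 15 of the 45037 probe sets tested to them alone. Each gene was represented by the probe set with the highest mean log2 intensity over all 8 arrays, which gave 8 of 18193 named genes, and the other 7 probe sets served as a check. The arrays measured total RNA of mouse embryo propers in 4 groups with 2 arrays each. These were Runx1 knockout embryos at E12 (embryonic day 12), wild-type embryos at E12, Runx1 knockout embryos at E8.5 and wild-type embryos at E8.5. Runx1 encodes a DNA-binding transcription factor needed for definitive hematopoiesis, the formation of the adult type of blood cells. All mice were on a BALB/c background, and no group carried a further allele or treatment named in the labels. The study describes the replicates as biological, whereas the labels do not say how many embryos contributed to an array. Embryos without Runx1 are known to die at about the later of these stages. In RNA of embryo propers, fewer red cells and less RNA per red cell cannot be told apart.

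The red-cell membrane is a lipid bilayer held to a spectrin skeleton on its inner face. Slc4a1, the chloride and bicarbonate exchanger, is the most abundant protein of that membrane. Ankyrin, encoded by Ank1, ties the exchanger to beta-spectrin, encoded by Sptb, and Epb42 encodes a transglutaminase-like protein without enzyme activity that steadies this link. Rhag, an ammonia channel, and Rhd, the single Rh protein of the mouse, form the Rh complex, which Icam4 joins as an adhesion protein. Ermap is a butyrophilin-like protein of the erythroid surface. In humans, Slc4a1, Rhd, Rhag, Icam4 and Ermap carry the Diego, Rh, RHAG, Landsteiner-Wiener and Scianna blood group antigens. In the mouse embryo the first, primitive red cells arise in the yolk sac and circulate, and definitive red cells come later from the fetal liver, which produces them from around the later of the stages sampled here.

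All values are the deposited RMA intensities (robust multi-array averages) on the log2 scale, on which a difference of 1 means a ratio of 2. Differences were tested with limma (moderated t, 1 fit over the 8 arrays, p-values adjusted by Benjamini-Hochberg over all 45037 probe sets). A probe set was called at an adjusted p below 0.05, and an absolute t above 3, the threshold in the study's methods, was counted as well. Array medians were 5.16 to 5.20 at E12 and 4.96 to 5.01 at E8.5, and the 99th percentile was 10.5 to 11.1 at E12 and 12.2 to 12.3 at E8.5. The scaling between stages is therefore not known, and levels set across stages rest on it. Within E12 the 99th percentile was 10.5 in replicate 1 and 11.1 in replicate 2 of the wild types, with both knockouts between them. Differences between the E12 arrays thus rest on the scaling as well. The replicates of a group differed by an SD over probe sets of 0.227 in E12 knockouts, 0.490 in E12 wild types, 0.403 in E8.5 knockouts and 0.833 in E8.5 wild types. Replicate 2 of each wild-type group stood apart for these genes. In the E12 wild types it was the highest of its stage for 6 of the 8 genes, and in the E8.5 wild types for 7. Of 6 Runx1 probe sets, 3 were lower in knockouts than in wild types at E12 and 0 at E8.5. At E8.5 all 6 were higher in knockouts, the most by 1.03 (limma t = 6.17, adjusted p = 0.843). No probe set had a lower adjusted p in the E8.5 comparison. Where these probes lie relative to the deleted part was not analysed here, so Runx1 signal is no check of the genotype.

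The 8 genes were higher at E12 than at E8.5 in either genotype, and 6 of them passed the test. In knockouts, 6 of 8 were called higher, where 11.6% of all probe sets were, and the difference had a median of 2.75 (log2) over the 8 genes and 0.012 over all named genes. In wild types, 6 of 8 were called higher, where 12.1% of all probe sets were, with a median of 2.58 over the 8 genes and -0.0093 over all named genes. Folds are ratios of intensities with no known background level, and Rhag and Epb42 lay below the array median in all 4 E8.5 arrays. Slc4a1, Rhd and Ermap lay below it in both E8.5 knockouts, and Slc4a1 also in replicate 1 of the E8.5 wild types. Their folds thus rest on dim E8.5 values too. The called genes were Slc4a1, Epb42, Rhag, Rhd, Ermap and Icam4 in each genotype. The knockout and wild-type comparisons share no array, but they come from 1 fit with the same SE for a gene. The 2 tests of a gene are thus not independent. In knockouts both E12 arrays lay above both E8.5 arrays for 8 of 8 genes (38.7% of all probe sets), and in wild types for 7 of 8 (30.7%), Ank1 being the exception. Rhag, Rhd and Icam4 were called in each genotype under every alternative run. A fit that leaves out an array assumes that the array left in its group varies like the other groups. Slc4a1, Epb42 and Ermap were not called in knockouts when any 1 of the 4 knockout arrays was left out, with adjusted p from 0.0534 to 0.167 (limma) and differences of the same sign. In wild types, with 1 of the 8 arrays left out, Slc4a1 was called in 7 of 8 fits (not without replicate 2 of the E12 wild types, adjusted p = 0.0586, limma), Epb42 in 1 of 8 and Ermap in 2 of 8, all with the same sign.

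**Figure D1:**
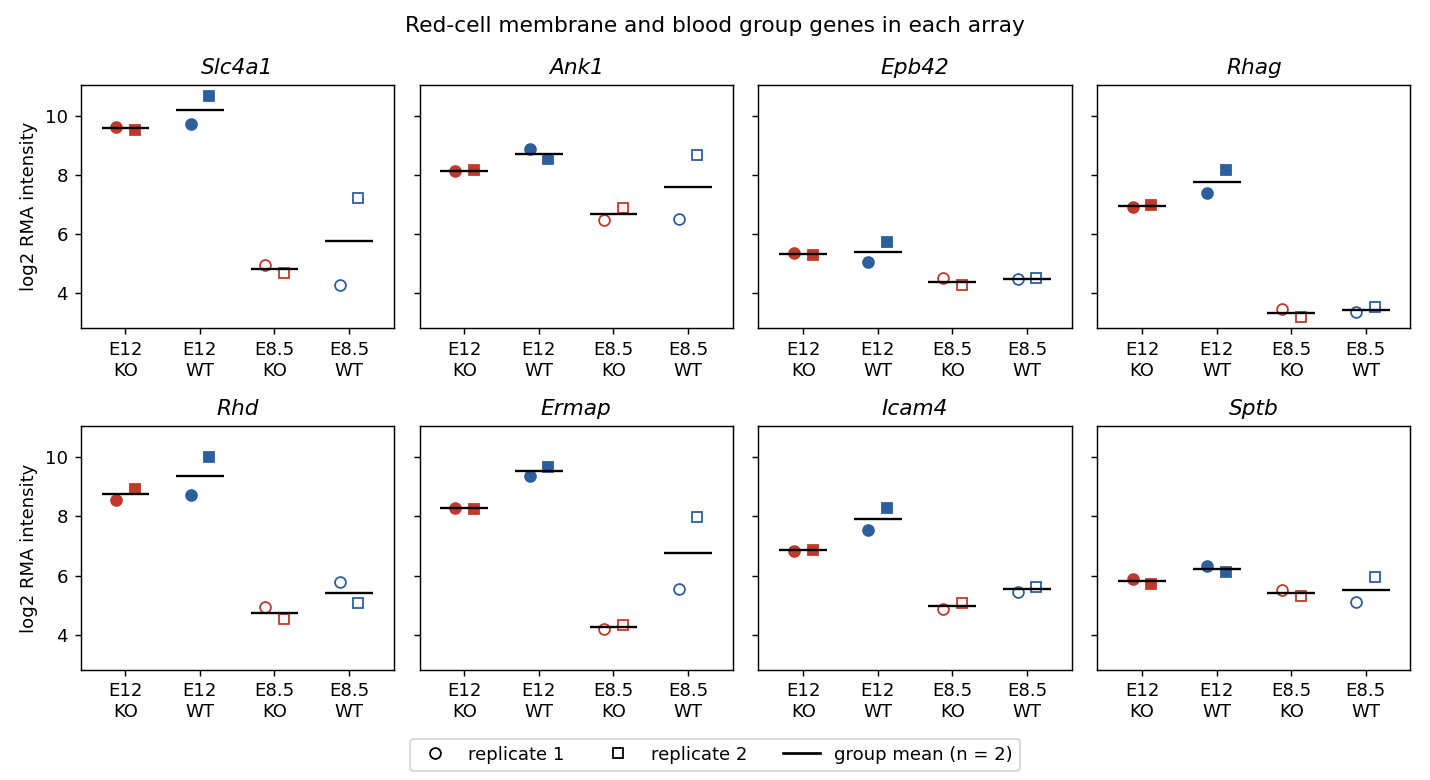
Log2 RMA intensity (y axis) of each of the 8 genes in each array, by stage and genotype (x axis). Circles are replicate 1 and squares replicate 2 (red, knockout; blue, wild type; filled, E12; open, E8.5), and bars are group means of 2 arrays. For Slc4a1 the 4 E12 arrays sit between 9.53 and 10.68 and the 4 E8.5 arrays between 4.28 and 7.23.

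The exchanger Slc4a1 had 9.64 and 9.53 in E12 knockouts, 9.73 and 10.68 in E12 wild types, 4.97 and 4.68 in E8.5 knockouts, and 4.28 and 7.23 in E8.5 wild types. Its stage difference was the highest of the 8 genes in the values as deposited. In knockouts it averaged 9.59 ± 0.08 at E12 and 4.83 ± 0.20 at E8.5 (SD, n = 2 arrays each), a rise of 4.76 or 27.1-fold (limma adjusted p = 0.0113). In wild types it averaged 10.21 ± 0.67 at E12 and 5.76 ± 2.09 at E8.5, a rise of 4.45 or 21.8-fold (limma adjusted p = 0.013). The wild-type difference was 5.93 without replicate 2 of the E8.5 wild types and 2.97 without replicate 1. The 2 E8.5 wild types lay on either side of both E8.5 knockouts.

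Ank1, the ankyrin that anchors the exchanger, did not pass the test between stages. It had 8.14 and 8.16 in E12 knockouts, 8.88 and 8.56 in E12 wild types, 6.48 and 6.87 in E8.5 knockouts, and 6.51 and 8.69 in E8.5 wild types. The stage difference was 1.48 in knockouts (limma adjusted p = 0.137) and 1.12 in wild types (limma adjusted p = 0.238). Replicate 2 of the E8.5 wild types lay between the E12 wild types, and the other 3 E8.5 arrays lay below all E12 arrays. Without that array the wild-type difference was 2.21, and without replicate 1 of the E8.5 wild types it was 0.031.

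Epb42, which binds both the exchanger and ankyrin, stayed dim. It had 5.36 and 5.29 in E12 knockouts, 5.08 and 5.73 in E12 wild types, 4.51 and 4.29 in E8.5 knockouts, and 4.47 and 4.52 in E8.5 wild types. The 4 arrays of a stage did not overlap with those of the other stage. The rise was 0.92 or 1.90-fold in knockouts (limma adjusted p = 0.0325) and 0.91 or 1.88-fold in wild types (limma adjusted p = 0.032), where it was 0.58 without replicate 2 of the E12 wild types and 1.24 without replicate 1.

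Beta-spectrin, Sptb, had 5.89 and 5.71 in E12 knockouts, 6.31 and 6.11 in E12 wild types, 5.50 and 5.29 in E8.5 knockouts, and 5.09 and 5.95 in E8.5 wild types. The difference between stages was 0.41 in knockouts (limma adjusted p = 0.352) and 0.69 in wild types (limma adjusted p = 0.128). With Ank1 it was the member whose stage difference did not pass the test in either genotype. Without replicate 2 of the E8.5 wild types the wild-type difference was 1.12, and without replicate 1 it was 0.26.

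In the Rh complex, Rhag had 6.92 and 7.003 in E12 knockouts, 7.38 and 8.19 in E12 wild types, 3.48 and 3.19 in E8.5 knockouts, and 3.37 and 3.52 in E8.5 wild types. The 4 E8.5 arrays lay between 3.19 and 3.52, below every E12 array and below their own array medians. With no known background level, the size of the folds is uncertain. Rhag rose 12.4-fold in knockouts (3.63, limma adjusted p = 0.00108) and 20.2-fold in wild types (4.34, limma adjusted p = 0.000824).

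Rhd, its partner, had 8.56 and 8.92 in E12 knockouts, 8.73 and 10.003 in E12 wild types, 4.94 and 4.51 in E8.5 knockouts, and 5.79 and 5.06 in E8.5 wild types. It rose 16.2-fold in knockouts (4.02, limma adjusted p = 0.00283) and 15.4-fold in wild types (3.94, limma adjusted p = 0.00287). The adhesion protein Icam4 had 6.84 and 6.86 in E12 knockouts, 7.55 and 8.29 in E12 wild types, 4.85 and 5.08 in E8.5 knockouts, and 5.44 and 5.62 in E8.5 wild types. At each stage both knockouts lay below both wild types. Icam4 rose 3.68-fold in knockouts (1.88, limma adjusted p = 0.00486) and 5.25-fold in wild types (2.39, limma adjusted p = 0.00248).

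Ermap had 8.29 and 8.27 in E12 knockouts, 9.38 and 9.68 in E12 wild types, 4.19 and 4.32 in E8.5 knockouts, and 5.55 and 7.99 in E8.5 wild types. Here, too, the knockouts lay below the wild types at each stage, and the E8.5 wild types were far apart. Ermap rose 16.3-fold in knockouts (4.02, limma adjusted p = 0.00935) and 6.76-fold in wild types (2.76, limma adjusted p = 0.0288). The wild-type difference was 3.98 without replicate 2 of the E8.5 wild types and 1.54 without replicate 1.

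**Figure D2:**
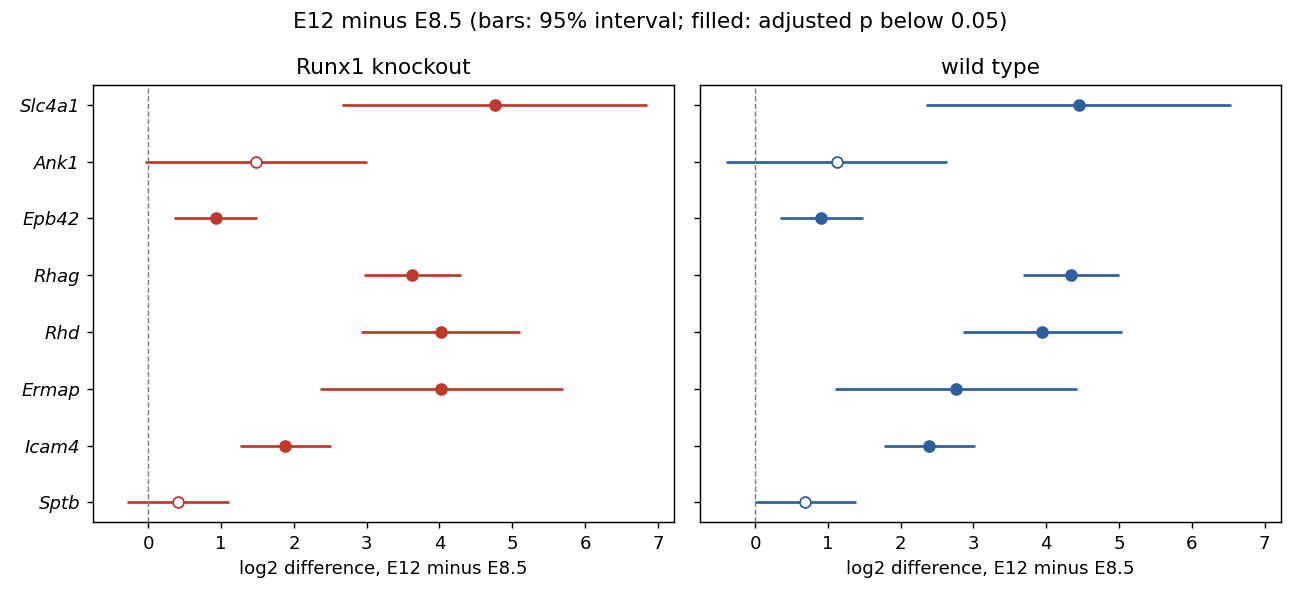
Log2 difference of E12 minus E8.5 (x axis) for each gene (y axis), in knockouts (left) and wild types (right). Points are limma estimates, bars their 95% intervals, and filled points have an adjusted p below 0.05. Rhag is at 3.63 in knockouts and 4.34 in wild types, and Ank1 and Sptb are the open points in both.

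The promoters of the 4 genes that encode the Rh complex and the surface proteins are shown, all called higher at E12 in each genotype. Epb42 was called in each genotype as well, but its window and that of Sptb are not printed. Neither holds a GATA motif in the 200 bases described below, so the windows shown are those with such a motif. RefSeq promoter windows (GRCm38.p6, 250 bases before to 50 after a transcript start) were found for 6 of the 8 genes, all but Slc4a1 and Ank1. Each line gives the 200 bases that begin 150 before that transcript start, 5′ to 3′ on the strand of the gene, and the capitals mark a GATA motif (AGATAA or TGATAA on either strand). They lie at chr17:40810999-40811198 (plus strand, Rhag), chr4:134864386-134864585 (plus strand, Rhd), chr9:21029282-21029481 (plus strand, Icam4) and chr4:119189946-119190145 (minus strand, Ermap).
Rhag: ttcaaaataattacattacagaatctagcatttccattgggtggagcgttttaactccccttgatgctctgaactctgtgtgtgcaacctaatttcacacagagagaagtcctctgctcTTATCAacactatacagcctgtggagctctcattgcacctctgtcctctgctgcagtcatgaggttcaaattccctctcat
Rhd: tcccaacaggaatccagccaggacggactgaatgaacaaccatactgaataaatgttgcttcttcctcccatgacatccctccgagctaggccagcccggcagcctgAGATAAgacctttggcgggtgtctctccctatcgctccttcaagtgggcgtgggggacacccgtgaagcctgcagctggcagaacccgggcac
Icam4: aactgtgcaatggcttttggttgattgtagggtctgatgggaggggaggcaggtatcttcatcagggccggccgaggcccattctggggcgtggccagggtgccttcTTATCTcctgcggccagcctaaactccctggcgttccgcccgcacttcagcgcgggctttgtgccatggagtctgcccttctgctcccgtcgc
Ermap: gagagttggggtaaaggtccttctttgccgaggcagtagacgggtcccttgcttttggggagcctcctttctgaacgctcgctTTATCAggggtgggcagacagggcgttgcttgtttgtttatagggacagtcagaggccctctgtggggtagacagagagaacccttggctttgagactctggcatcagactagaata
GATA factors are the transcription factors best known for binding such letters in erythroid genes. The motif began 31 bases before the transcript start of the window in Rhag, 43 in Rhd, 43 in Icam4 and 67 in Ermap. That start lay 50 bases inside the gene as RefSeq records it in Rhag and 18 in Ermap, so the Rhag motif lies within the recorded gene, and it was the outer end of the gene in Rhd and Icam4. Over the full windows it was found in 5 of the 6 genes, the fifth being Epb42 at 226 bases before the start, and in 18.6% of 32851 RefSeq promoter windows of the same length. A RUNX motif (TGTGGT or TGCGGT on either strand) was found in 1 of 6, Rhag, at 212 bases before the start, and in 22.4% of all windows. A KLF motif (CCNCNCCC on either strand) was found in 3 of 6, namely Rhd, Icam4 and Sptb, and in 49.5% of all windows. These are matches of letters, and binding was not measured.

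Knockouts were then set against wild types within each stage, to see whether loss of Runx1 went with less RNA of the red-cell membrane proteins. At E12 all 8 genes were lower in knockouts, with a median difference of -0.62 over the 8 genes and -0.0063 over all named genes, of which 51.2% were lower. None was called: 0 of 8 against 0.0133% of all probe sets (limma, all of the called ones lower), and 2 of the 8 had an unadjusted p below 0.05. Icam4 was the 1 gene of 8 with a t below -3, where 0.473% of all probe sets had one. Both knockouts lay below both wild types for 6 of the 8, and for 15.8% of all probe sets; Epb42 and Rhd were the exceptions.

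At E8.5 all 8 genes were lower in knockouts as well, with a median difference of -0.63 over the 8 genes and -0.014 over all named genes, of which 52.3% were lower. Again none was called, 0 of 8, and 0% of all probe sets were (limma), while 1 of the 8 had an unadjusted p below 0.05. That gene was Ermap, also the 1 gene of 8 with a t below -3, where 1.18% of all probe sets had one. Both knockouts lay below both wild types for Rhd, Ermap and Icam4, 3 of 8, and for 16.1% of all probe sets.

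**Figure D3:**
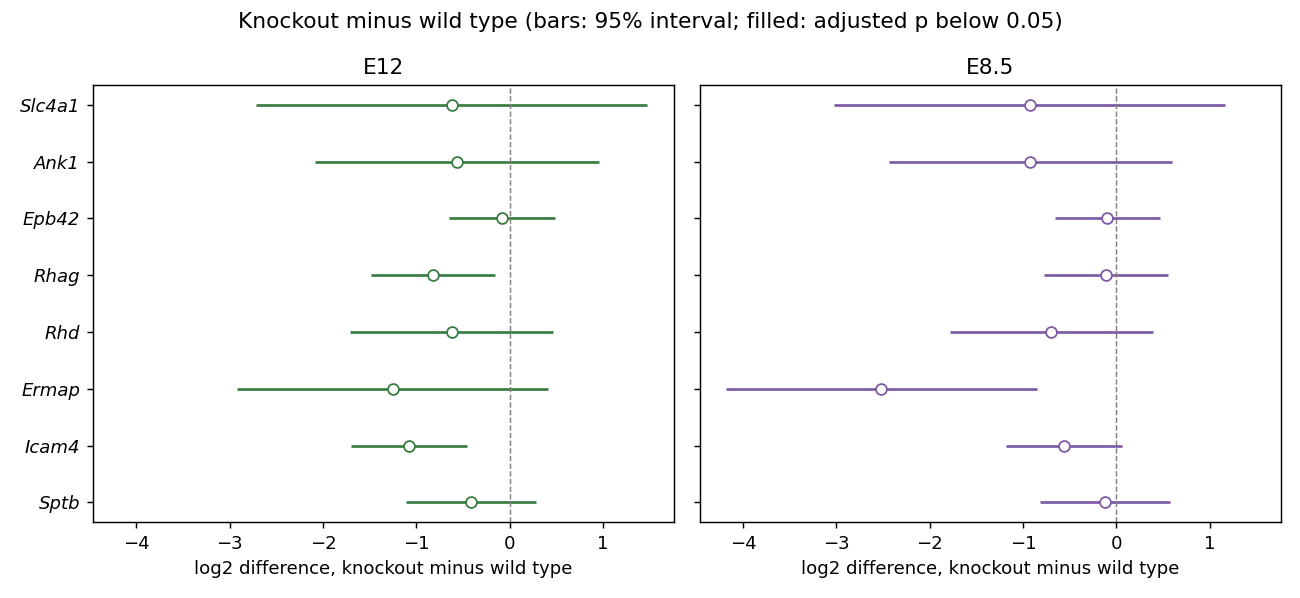
Log2 difference of knockout minus wild type (x axis) for each gene (y axis) at E12 (left) and E8.5 (right). Points are limma estimates and bars 95% intervals, and every point is open because no adjusted p was below 0.05. Every point lies left of 0, Icam4 at -1.07 at E12 and Ermap at -2.52 at E8.5 being the ones with a t below -3.

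Icam4 averaged 6.85 ± 0.01 in E12 knockouts and 7.92 ± 0.52 in E12 wild types (SD, n = 2 arrays each). The difference was -1.07 (SE 0.26, 95% interval -1.69 to -0.45, limma t = -4.14, adjusted p = 1), so that knockouts had 47.5% of the wild-type intensity. At E8.5 Icam4 averaged 4.97 ± 0.16 in knockouts and 5.53 ± 0.13 in wild types, a difference of -0.56 (SE 0.26, limma adjusted p = 1). Without replicate 2 of the E12 wild types the E12 difference was -0.70, and without replicate 1 it was -1.44.

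Ermap averaged 8.28 ± 0.01 in E12 knockouts and 9.53 ± 0.21 in E12 wild types, a difference of -1.25 (SE 0.69, 95% interval -2.92 to 0.41, limma adjusted p = 1), or 42.0% of the wild-type intensity. At E8.5 it averaged 4.25 ± 0.10 in knockouts and 6.77 ± 1.73 in wild types, a difference of -2.52 (SE 0.69, 95% interval -4.18 to -0.85, limma t = -3.62, adjusted p = 0.99), or 17.5% of the wild-type intensity. Both E8.5 knockouts lay below their array medians for Ermap, so this percentage rests on no known background level. The size of the E8.5 difference turned on 1 array. Without replicate 2 of the E8.5 wild types it was -1.30, and without replicate 1 it was -3.74. Each of these fits takes the spread from the other groups and so leaves out the wide gap between the E8.5 wild types.

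Rhag averaged 6.96 ± 0.06 in E12 knockouts and 7.79 ± 0.57 in E12 wild types, a difference of -0.82 (SE 0.28, 95% interval -1.49 to -0.16, limma t = -2.97, adjusted p = 1). It was -0.42 without replicate 2 of the E12 wild types and -1.23 without replicate 1. At E8.5, where it was dim in every array, the difference was -0.11 (SE 0.28, limma adjusted p = 1). Rhd differed by -0.62 at E12 (95% interval -1.71 to 0.47) and by -0.70 at E8.5 (95% interval -1.79 to 0.40). Replicate 2 carried the E12 difference of Rhd, which was 0.014 without that wild-type array and -1.26 without the other one. Of the Rh complex and its partner, Rhag and Icam4 thus had knockouts below wild types without overlap at E12, and Rhd did not.

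For the exchanger complex the intervals were wide. Slc4a1 differed by -0.62 at E12 (95% interval -2.72 to 1.48) and by -0.93 at E8.5 (95% interval -3.03 to 1.17). Its E12 difference was -0.14 without replicate 2 of the wild types and -1.10 without replicate 1. Ank1 differed by -0.56 at E12 (95% interval -2.08 to 0.96) and by -0.92 at E8.5 (95% interval -2.44 to 0.60). Without replicate 2 of the E8.5 wild types the E8.5 differences were 0.55 for Slc4a1 and 0.17 for Ank1, so their direction rested on that array. Epb42 differed by -0.080 at E12 (95% interval -0.65 to 0.49) and by -0.095 at E8.5 (95% interval -0.66 to 0.47). Sptb differed by -0.41 at E12 (95% interval -1.10 to 0.29) and by -0.13 at E8.5 (95% interval -0.82 to 0.57), and without that E8.5 wild type by 0.31 at E8.5. Without it, the median over the 8 genes at E8.5 was -0.056. At E12 the median was -0.47 without replicate 2 of the wild types and -1.16 without replicate 1.

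Whether the knockout difference itself changed between the stages was tested as an interaction. None of the 8 passed it: 0 of 8 were called, against 0.00444% of all probe sets (limma), and 0 of 8 had an unadjusted p below 0.05. The E12 difference minus the E8.5 difference ran between -0.71 (SE 0.39) for Rhag and 1.27 (SE 0.98) for Ermap, with a median of 0.044. The arrays do not show a different knockout effect at E12 than at E8.5 for any of these genes, and intervals of this width leave room for one.

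Within a stage the 8 genes did not all move together. Over the 8 arrays, each gene centred on its stage mean, 26 of the 28 pairs of genes correlated above 0, with a median Pearson r of 0.51. Slc4a1, Ank1, Sptb and Ermap correlated with r between 0.711 and 0.894, and Epb42, Rhag, Rhd and Icam4 with r between 0.527 and 0.887. Across these sets, which were formed after the values were seen, r lay between -0.083 and 0.702. The first set was high in replicate 2 of the E8.5 wild types, where Slc4a1 was 1.94, Ank1 1.55, Ermap 2.48 and Sptb 0.49 above the mean of its stage. The same array stood 0.13 above the mean for Rhag, 0.37 for Icam4, 0.07 for Epb42 and -0.02 for Rhd. In replicate 2 of the E12 wild types, Rhd was 0.95, Icam4 0.91, Rhag 0.81 and Epb42 0.37 above the mean of the stage, and of the first set Slc4a1 was 0.79, Ermap 0.77, Ank1 0.12 and Sptb 0.10 above it. These are descriptions over 8 arrays that share their groups and their array-wide scaling.

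The genes whose pattern was most like the mean of the 8, by Pearson r over the 8 stage-centred arrays among 8827 genes with a mean log2 of 6 or more, were Trim11, Foxo3, Ell2, Snrnp200, Slc25a37, Nfrkb, Blvrb, Nup210, Efl1 and Rbm14, with r from 0.984 for Trim11 to 0.95 for Rbm14. Slc25a37 imports iron into mitochondria for heme synthesis (r = 0.963), and Blvrb is a biliverdin reductase abundant in red cells (r = 0.957). Foxo3, a forkhead transcription factor, had an r of 0.981. Centring takes out the stage difference, so likeness here is within a stage. Between stages Foxo3, Slc25a37 and Blvrb were higher at E12 in each genotype. The other genes named were lower, Efl1 with a difference of -2.05 in knockouts and -2.02 in wild types. With 8 arrays and so many genes compared, values of r of this size are a description.

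The other probe sets of the genes were read as a check. Over all 15 probe sets, 13 were lower in knockouts at E12 and 12 at E8.5, 0 were called, and 1 at each stage had a t below -3. Between stages all 15 were higher at E12 in each genotype, and 7 were called in each. The second Slc4a1 probe set followed the first. It had 9.05 and 8.89 in E12 knockouts, 9.13 and 10.21 in E12 wild types, 4.10 and 3.02 in E8.5 knockouts, and 2.71 and 8.56 in E8.5 wild types. Its knockout difference was -0.70 at E12 and -2.07 at E8.5, and its stage difference was 5.41 in knockouts (limma adjusted p = 0.0582) and 4.04 in wild types (limma adjusted p = 0.123). The third was dim in all arrays, with 4.51 as its highest value. For Ank1, the second brightest probe set rose by 1.09 in knockouts (limma adjusted p = 0.0115) and by 1.21 in wild types (limma adjusted p = 0.00782), where the brighter one did not pass. The second probe sets of Epb42 and Sptb differed from the first in sign in 1 or both knockout comparisons, with -0.37 at E12 and 0.052 at E8.5 for Epb42 and 0.27 at E12 and 0.031 at E8.5 for Sptb.

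**Figure D4:**
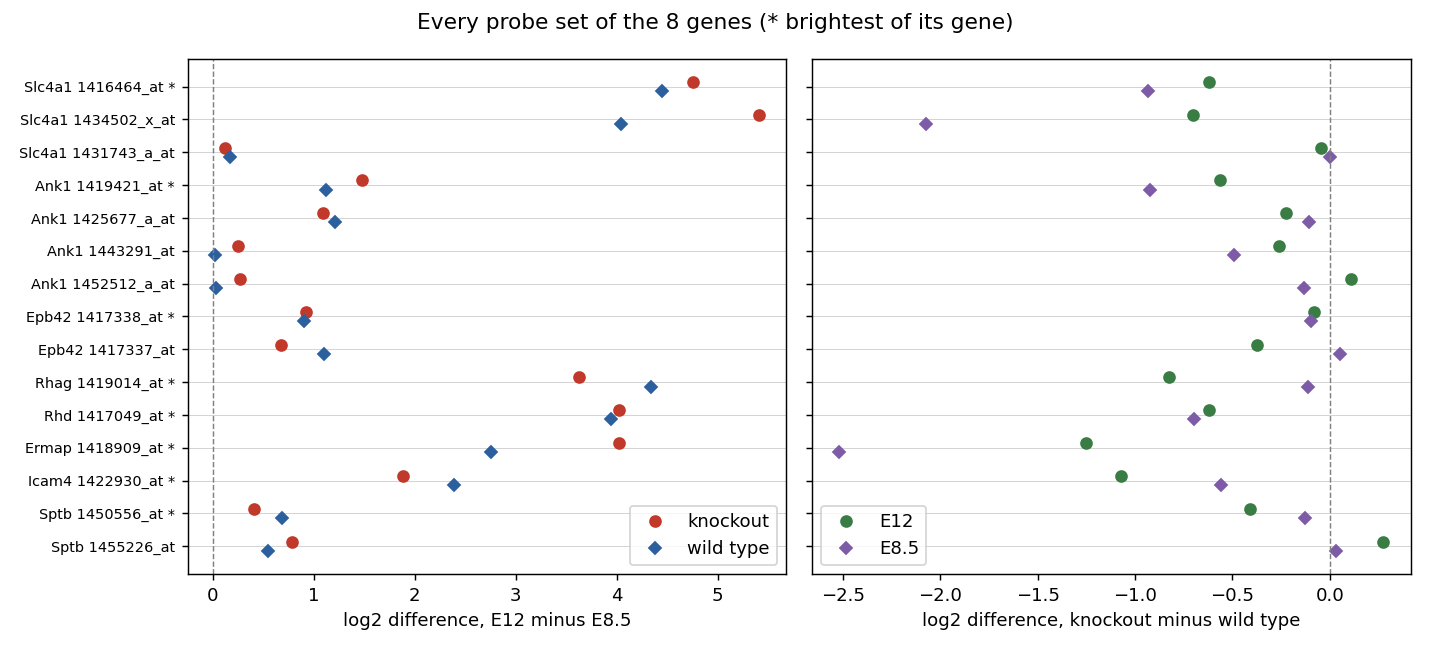
Every probe set of the 8 genes (y axis, an asterisk marks the brightest of its gene) against the log2 difference of E12 minus E8.5 (left, x axis) and of knockout minus wild type (right, x axis). Circles and diamonds are knockout and wild type on the left, and E12 and E8.5 on the right. All 15 probe sets lie right of 0 on the left, and 13 at E12 and 12 at E8.5 lie left of 0 on the right.

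Other genes of the red cell were followed from lists. Of 10 measured genes of the membrane skeleton and its anchors, 8 were lower in knockouts at E12 and 7 at E8.5, 0 were called and 0 passed an absolute t of 3 (medians -0.10 and -0.13). The highest absolute t at E12 was that of Gypc, a glycophorin that ties the skeleton to the membrane, with a difference of -0.51, and at E8.5 that of Tmod1, which caps actin filaments, with -0.68. Between stages 1 of the 10 was called higher at E12, and 2 lower, in each genotype. Of all probe sets, 11.6% were called higher and 14.1% lower in knockouts, and 12.1% higher and 15.7% lower in wild types. The one called higher was Add2, the beta-adducin of the spectrin and actin junction, named after its values were seen. Add2 differed by 3.01 in knockouts (limma adjusted p = 0.000651) and by 2.87 in wild types (limma adjusted p = 0.000824). Those called lower were Mpp1 and Tpm3, also named after their values were seen. Mpp1 differed by -1.16 in knockouts (limma adjusted p = 0.029) and by -1.17 in wild types (limma adjusted p = 0.0258). Tpm3 differed by -2.004 in knockouts (limma adjusted p = 0.00223) and by -1.82 in wild types (limma adjusted p = 0.00264).

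Of 24 measured genes of other blood group carriers and enzymes, 21 were lower in knockouts at E12 and 17 at E8.5, and 0 were called at either stage. At E12, 2 had a t below -3, where 0.473% of all probe sets had one. Slc14a1, the urea transporter that carries the Kidd antigens in humans, differed by -1.39 (limma adjusted p = 0.809), and Cd44, a hyaluronan receptor, by -1.35 (limma adjusted p = 1). At E8.5, 2 had a t below -3 (1.18% of all probe sets), Abcb6 (-0.73), a porphyrin transporter, and Cd151 (-0.74), a tetraspanin. B3galnt1 (0.89), a glycosyltransferase, had one above 3 (0.881% of all probe sets). Between stages 1 was called higher and 9 lower in knockouts, where 11.6% and 14.1% of all probe sets were, and 4 higher and 9 lower in wild types, where 12.1% and 15.7% were.

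Of 11 measured red-cell channels and transporters, 10 were lower in knockouts at E12 and 9 at E8.5, and 0 were called. Piezo1, the mechanically gated cation channel, differed by -0.58 at E12 and by -0.94 at E8.5, where it was the 1 gene with a t below -3 (1.18% of all probe sets). Between stages 2 were called higher and 2 lower in knockouts, where 11.6% and 14.1% of all probe sets were. In wild types 1 was called higher and 4 lower, where 12.1% and 15.7% of all probe sets were. Of 19 measured paralogs that serve outside the red cell, 12 were lower in knockouts at E12 and 9 at E8.5, with medians of -0.049 and 0.036, and 0 were called. Btn1a1, a butyrophilin of milk fat, differed by -0.58 at E12 (t below -3, as in 0.473% of all probe sets), and Tgm2, a transglutaminase, by -1.43 at E8.5 without reaching that t. Between stages 3 of the 19 were called higher and 3 lower in knockouts, where 11.6% and 14.1% of all probe sets were. In wild types 4 of the 19 were called higher and 5 lower, where 12.1% and 15.7% were.

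Of 20 measured genes of red-cell identity (globins, heme synthesis and erythroid transcription factors), 15 were lower in knockouts at E12 and 19 at E8.5, with medians of -0.73 and -0.44, and 0 were called. At E12, 4 of the 20 had a t below -3, where 0.473% of all probe sets had one. They were the transcription factors Gata1 (-1.54) and Gfi1b (-1.27), the adult globin Hbb-b2 (-0.88) and Cldn13 (-1.19), a claudin of mouse erythroblasts. The embryonic globins Hba-x, Hbb-bh1 and Hbb-y, named after their values were seen, differed by 0.037, 0.15 and 0.016 at E12 and by -2.53, -0.084 and -1.84 at E8.5, with replicate 2 of the E8.5 wild types the highest E8.5 array for each. At E8.5 Hemgn, an erythroid nuclear protein, had the highest absolute t, with -2.11. Between stages 5 of the 20 were called higher at E12 and 1 lower in knockouts, where 11.6% and 14.1% of all probe sets were. In wild types 5 were called higher and 0 lower, where 12.1% and 15.7% of all probe sets were. The median stage difference of these 20 genes was 0.46 in knockouts and 0.62 in wild types. By array the list ran beside the 8 genes: its mean deviation from the stage mean was -0.38 and -0.26 in E12 knockouts, 0.02 and 0.62 in E12 wild types, -0.34 and -0.38 in E8.5 knockouts, and -0.19 and 0.91 in E8.5 wild types. The 8 genes had -0.35 and -0.33 in E12 knockouts, 0.08 and 0.60 in E12 wild types, -0.33 and -0.41 in E8.5 knockouts, and -0.13 and 0.88 in E8.5 wild types.

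**Figure D5:**
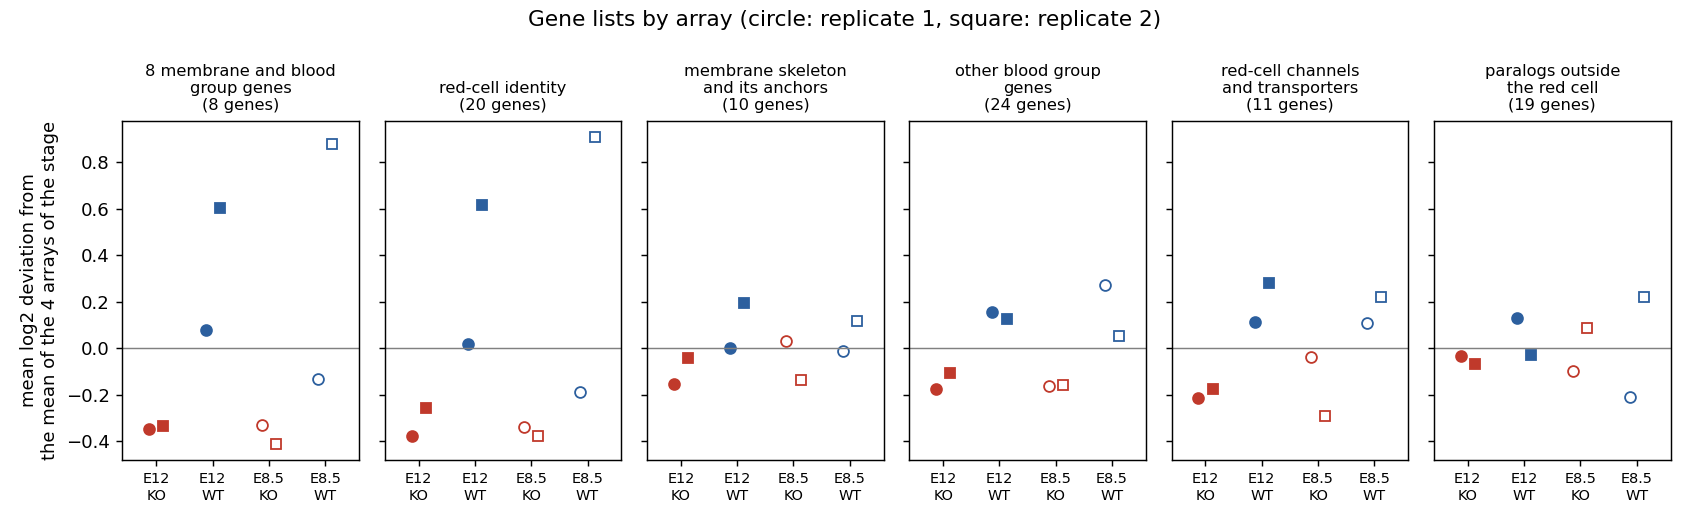
Mean log2 deviation of each gene list from the mean of the 4 arrays of its stage (y axis), by stage and genotype (x axis), with 1 panel per list. Circles are replicate 1 and squares replicate 2 (red, knockout; blue, wild type; filled, E12; open, E8.5). Replicate 2 of the wild types is the highest array of its stage for the 8 genes (0.60 at E12, 0.88 at E8.5) and for red-cell identity (0.62 at E12, 0.91 at E8.5). It is also the highest, by less, for the membrane skeleton (0.19 at E12, 0.12 at E8.5) and for channels and transporters (0.28 at E12, 0.22 at E8.5). For the paralogs it is the highest at E8.5 (0.22). For the other blood group genes replicate 1 of the wild types is the highest (0.16 at E12, 0.27 at E8.5).

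Markers of some other cells moved with the stages and the groups. The summed intensity of 8 markers of yolk sac endoderm and liver was 4193 and 6148 in E12 knockouts, 4240 and 4947 in E12 wild types, 42551 and 54561 in E8.5 knockouts, and 30170 and 53208 in E8.5 wild types. The study's methods, however, name the embryo proper. Of the yolk sac endoderm and liver markers, 7 of 8 were lower at E12 in each genotype. The 7 neural markers, which belong to the embryo itself, summed to 2399 and 2846 in E12 knockouts, 1844 and 2674 in E12 wild types, 790 and 745 in E8.5 knockouts, and 434 and 917 in E8.5 wild types. At E12 the summed intensity of 6 megakaryocyte markers was 196 and 185 in knockouts, against 1941 and 2415 in wild types, with 6 of 6 lower and 3 called (limma). That of 8 macrophage markers was 410 and 384 in knockouts, against 1403 and 1110 in wild types, with 8 of 8 lower and 1 called. In the same comparison 51.2% of all named genes were lower, and 0.0133% of all probe sets were called. At E8.5 the sum of 5 trophoblast markers was 928 and 629 in knockouts, against 11891 and 669 in wild types, with 5 of 5 lower and 0 called, and that of 6 heart markers was 2920 and 1183 in knockouts, against 316 and 1279 in wild types. Of all named genes 52.3% were lower in knockouts at E8.5, and 0% of all probe sets were called. The array high in trophoblast markers was replicate 1 of the E8.5 wild types, and the one high in the 8 genes was replicate 2. For 6 endothelium markers the E12 sum was 468 and 532 in knockouts, against 593 and 558 in wild types. Their E8.5 sum was 1318 and 1018 in knockouts, against 1665 and 960 in wild types. For 6 skeletal muscle markers the E12 sum was 1146 and 1367 in knockouts, against 1593 and 1396 in wild types. Their E8.5 sum was 175 and 154 in knockouts, against 191 and 154 in wild types. The part of these cells in the differences of the 8 genes was not tested.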

How the data were processed

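Total RNA of mouse embryo propers (Trizol extraction, amplified before labelling) was hybridised to 8 Affymetrix whole-genome mouse arrays with 1 colour, 2 for each of the 4 groups. Background correction, normalization and summary per probe set were done by the authors with RMA. The values they deposited are linear-scale intensities. Joint normalization of the 8 arrays and the software version are not stated in the sources at hand, and no detection calls were used. A probe set that is dim in every group has no known background level.

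Deposited intensities were log2-transformed without a pseudocount. The table held 45101 probe sets, of which 64 controls were removed, and the other 45037 were tested without a filter. Symbols from the platform annotation were brought up to date with RefSeq gene names (GRCm38.p6, names only), which gave 34945 probe sets with 1 symbol, 932 with several and 9160 with none. Group means were fitted over all 8 arrays with limma 3.58.1 (R 4.3.3) and tested with lmFit and eBayes, with 4 residual degrees of freedom before moderation. The same steps were tested on simulated data. The number of arrays limits the precision, and since nothing names separate litters, p-values cover only sample-to-sample spread, which may be technical in part.

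The 8 genes and all lists were chosen with earlier results of these data known. All 8 were named. From each other list, genes with an absolute t above 3 in a knockout comparison were named (at most 4 per stage), or else the gene with the highest absolute t. Markers of other cells were given as sums over each list. Alternatives were a fit of only the 4 arrays compared, quantile normalization, a pseudocount of 16, a minimum mean log2 of 6, the mean of all probe sets of a gene, array weights, a replicate block and leaving out each array in turn. Leaving out replicate 2 of both wild-type groups was added after seeing the data. Replicate numbers in the labels were not taken as pairs: the deviations of same-numbered arrays from their group means correlated with r = 0.173 at E12 and 0.372 at E8.5, but nothing says that a number marks a shared litter or day.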

Additional observations from a re-analysis of the deposited data

How the results depend on the processing

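No group of 2 arrays can show a stray array by itself. Dim probe sets limit what can be seen, namely Epb42, Rhag at E8.5, and Slc4a1, Rhd and Ermap in the E8.5 knockouts. Over all single-gene values, 539 of 617 kept their direction and side of the threshold, 35 lost a call or t of 3 in the same direction, 12 gained one and 31 turned.

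Between stages, the median over the 8 genes in knockouts was 2.75. It was 4.02 with the minimum mean log2 of 6, which keeps 5 of the genes, and 1.95 with the pseudocount. Leaving out 1 array gave 2.73 to 2.78, with 3 to 7 genes called and 5 to 7 past an absolute t of 3. In wild types the median was 2.58, and 3.07 with quantile normalization, with 3 genes called in the fit of only the 4 arrays. Leaving out 1 array gave 1.92 to 3.03, with 3 to 7 called (3 without replicate 2 of the E12 wild types) and 5 to 8 past t. Probe sets with a mean log2 of 6 or more shifted between stages by a median of -0.67 in knockouts and -0.70 in wild types, so relative to them the rises are larger.

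For knockouts against wild types at E12, 0 genes were called under every alternative, and the genes past an absolute t of 3 numbered 1. They were 2 with array weights, the mean of all probe sets, the pseudocount or quantile normalization, and 3 in the fit of only the 4 arrays or without both wild-type arrays numbered 2. Leaving out 1 array gave medians of -1.16 to -0.47 and 1 to 3 genes past t, and Icam4 was past it each time. At E8.5 the median was -0.92 with the minimum of 6 and -0.056 without both wild-type arrays numbered 2, where 1 gene, Ermap, was called and 2 were past t with the spread taken from the knockout groups, and 0 were past t with the pseudocount. Leaving out 1 array gave medians of -0.63 to -0.056, 0 to 1 genes called and 0 to 3 past t. The interaction had medians of -0.31 without both wild-type arrays numbered 2, 0.31 with the minimum of 6 and -0.66 to 0.27 with 1 array left out, with 0 genes called and 0 to 3 past t.

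Without both wild-type arrays numbered 2, these differences turned: Slc4a1 0.55, Ank1 0.17 and Sptb 0.31 at E8.5, Epb42 0.25 and Rhd 0.014 at E12, and the interactions of Slc4a1 (-0.69) and Ank1 (-0.89). The interaction of Epb42 turned to -0.0018 with quantile normalization, -0.011 with the pseudocount and -0.21 with the mean of all probe sets, and that of Rhd to -0.022 with quantile normalization and -0.13 with the pseudocount. With 1 array left out, E8.5 differences ran from -2.41 to 0.55 for Slc4a1, -2.01 to 0.17 for Ank1, -0.21 to 0.018 for Epb42, -0.26 to 0.031 for Rhag and -0.56 to 0.31 for Sptb. E12 differences ran from -0.41 to 0.25 for Epb42 and -1.26 to 0.014 for Rhd. Interactions ran from -1.17 to 1.79 for Slc4a1, -0.73 to 1.45 for Ank1, -0.31 to 0.34 for Epb42, -0.56 to 0.71 for Rhd and -0.71 to 0.15 for Sptb. The cause of these changes was not tested.

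With the replicate number as a block, the medians stayed at -0.62 at E12 and -0.63 at E8.5 for knockouts against wild types, and the counts of the 8 genes called did not change in any comparison (6 and 6 between stages). Over all probe sets the E12 calls numbered 2 with the block and 6 without it.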
